A study of Mus musculus with 10 samples.

Results

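The 10 genes described here, Etv2, Tal1, Lmo2, Lyl1, Fli1, Erg, Runx1, Gfi1b, Klf1 and Nfe2, encode transcription regulators of the haemato-endothelial lineage, the mesoderm that gives rise to blood and to the inner lining of vessels. They were taken by name, as the rows whose Ensembl identifier has one of these symbols in the GENCODE M21 annotation, and are 10 of the 38924 genes in the count files. Transcripts were counted by RNAseq in 10 samples of sorted cells from differentiating mouse embryonic stem cells (mESCs), of which 3 were Foxa2+ cardiac mesoderm (CM), 3 Foxa2- CM, 2 endoderm and 2 cells named Flk1+ high. All samples came from the Foxa2-hCD4 line, whose Foxa2 locus also encodes a shortened human CD4 surface protein by which living cells can be sorted for Foxa2. Both CM groups and the Flk1+ high cells were taken at day 5 from cultures given Activin A at 8 ng/ml with BMP4 and VEGF, and the endoderm at day 5 from cultures given Activin A at 75 ng/ml. CM was sorted as cells with both Pdgfra and Kdr (the VEGF receptor Flk1) and split by hCD4, endoderm was sorted by hCD4, and the Flk1+ high cells, which the study treats as haematopoietic mesoderm, were sorted by high Kdr. Kdr and Pdgfra therefore set the groups, and each group is a mixture of cells in unknown states, so that fewer cells of a type and less RNA per cell cannot be told apart in any value below. Nothing in the labels says that the samples of a group came from separate cultures, and p-values then measure only the spread between these samples.

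In the embryo, Etv2 is the ETS-family factor that acts at the start of the blood and vessel programme in Kdr-expressing mesoderm. Tal1 and Lyl1 are related basic helix-loop-helix factors that bind DNA at E-boxes together with E proteins, and Lmo2 is the LIM-domain bridge that holds them in 1 complex with Ldb1 and GATA factors. Fli1 and Erg are ETS factors of endothelium and of blood stem and progenitor cells, and Runx1 is the factor required for blood to emerge from haemogenic endothelium. Gfi1b is a zinc-finger repressor of early blood, erythroid cells and megakaryocytes, Klf1 is the activator of globin and other red-cell genes, and Nfe2 is a basic leucine zipper factor of megakaryocytes and erythroid cells.

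The gate could be followed in the counts. Kdr stood at 553.8 and 592 CPM (counts scaled to the TMM normalized library size) in Flk1+ high, between 353 and 440 CPM in CM and at 6.24 and 9.94 CPM in endoderm, while Pdgfra stood at 34.3 and 23.8 CPM in Flk1+ high and between 201 and 306 CPM in CM. Foxa2 was at 185 and 182 CPM in endoderm and at 20.0, 16.0 and 3.49 CPM in Foxa2+ CM replicates 1, 2 and 3, so the third Foxa2+ CM sample was close to the highest Foxa2- CM sample, at 2.54 CPM. Each sample had between 10926284 and 17470126 counts on genes, and 3 counts correspond to between 0.172 and 0.275 CPM, a floor that covers counting error only.

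All 10 genes are protein coding and lie on 7 autosomes of mm10 (GRCm38). Etv2 is at chr7:30633616-30635852, Tal1 at chr4:115056426-115071755, Lmo2 at chr2:103957986-103981878, Lyl1 at chr8:84701457-84704715 and Fli1 at chr9:32422204-32542861. Erg is at chr16:95359169-95586593, Runx1 at chr16:92601466-92826149, Gfi1b at chr2:28609450-28621982, Klf1 at chr8:84901928-84905291 and Nfe2 at chr15:103248212-103258403. Tal1, Lmo2, Lyl1 and Klf1 are on the plus strand and the other 6 on the minus strand. The exons of Etv2 cover 1048 bases and those of Runx1 12025 bases, the shortest and the longest of the 10. Lyl1 shares 4 exonic bases with Nfix and Runx1 shares 106 with Gm26626, both on the opposite strand, and the libraries did not mark strand.

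RefSeq promoter windows on GRCm38.p6 were held for 7 of the 10 genes, and the 250 bases before the start are shown for 4 of them. Etv2 is shown as the factor whose counts differed least between Flk1+ high and CM, under a limit of the counting described below. Tal1, Lyl1 and Gfi1b are shown as factors with large differences, and Erg, whose differences were also large, is not shown. The windows are at chr7:30635853-30636102 on the minus strand for Etv2, chr4:115056176-115056425 on the plus strand for Tal1, chr8:84701207-84701456 on the plus strand for Lyl1 and chr2:28621983-28622232 on the minus strand for Gfi1b. Each is written 5′ to 3′, and capitals mark matches, on either strand, to the ETS core GGAA, the GATA core GATAA, the E-box CAGNTG and the Runx core TGTGGT.
Etv2: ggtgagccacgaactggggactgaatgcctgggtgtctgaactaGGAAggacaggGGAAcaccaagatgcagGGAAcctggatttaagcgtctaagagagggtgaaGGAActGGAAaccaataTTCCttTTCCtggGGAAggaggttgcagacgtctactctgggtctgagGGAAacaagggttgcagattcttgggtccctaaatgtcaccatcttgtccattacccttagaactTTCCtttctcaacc
Tal1: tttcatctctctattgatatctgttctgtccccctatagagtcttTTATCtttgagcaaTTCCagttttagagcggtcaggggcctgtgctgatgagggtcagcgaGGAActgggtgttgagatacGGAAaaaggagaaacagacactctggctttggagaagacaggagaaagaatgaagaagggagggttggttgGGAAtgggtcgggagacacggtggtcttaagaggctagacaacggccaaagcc
Lyl1: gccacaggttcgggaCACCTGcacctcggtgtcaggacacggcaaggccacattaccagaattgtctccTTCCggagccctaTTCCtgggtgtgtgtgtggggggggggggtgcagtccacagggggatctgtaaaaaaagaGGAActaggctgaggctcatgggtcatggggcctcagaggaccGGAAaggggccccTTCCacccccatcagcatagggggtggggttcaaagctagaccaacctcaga
Gfi1b: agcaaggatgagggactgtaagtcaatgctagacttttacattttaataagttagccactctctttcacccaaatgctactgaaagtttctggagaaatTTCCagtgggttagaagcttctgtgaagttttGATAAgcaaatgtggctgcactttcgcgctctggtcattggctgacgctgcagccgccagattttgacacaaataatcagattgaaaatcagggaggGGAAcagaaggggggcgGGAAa
The Etv2 window held 10 matches to GGAA and none to the other 3 motifs. Of the 27025 promoter windows of this length, 1 per gene, 93.4% held at least 1 GGAA, the median number was 3, and 0.2% held 10 or more. The Tal1 window shown held 4 matches to GGAA and 1 to GATAA, a second Tal1 window at chr4:115057561-115057810 held 3 and 0, the Gfi1b window held 3 and 1, and the Lyl1 window 5 to GGAA and 1 to CAGNTG. Among the windows of genes not shown, GGAA matched 0, 4 and 2 times for Erg, 4 and 6 for Runx1 and 2 for Klf1. The GATA core was in 23% of all windows, the E-box in 44.5% and the Runx core in 14.2%. These matches describe letters, in windows where no binding was measured.

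The summed level of the 10 factors was highest in Flk1+ high. It was between 1221 and 1273 CPM in Flk1+ high, between 429 and 537 CPM in Foxa2+ CM, between 299 and 472 CPM in Foxa2- CM, and 44.3 and 90.6 CPM in the endoderm samples. The factors did not share 1 pattern. Etv2 was between 87.9 and 126 CPM in all mesoderm samples, Tal1, Lmo2 and Runx1 were readily detected in CM and higher in Flk1+ high, and Lyl1 and Gfi1b were below 10 CPM in CM and at 50.04 CPM or more in Flk1+ high. Klf1 was below 4 CPM in every sample.

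**Figure D1:**
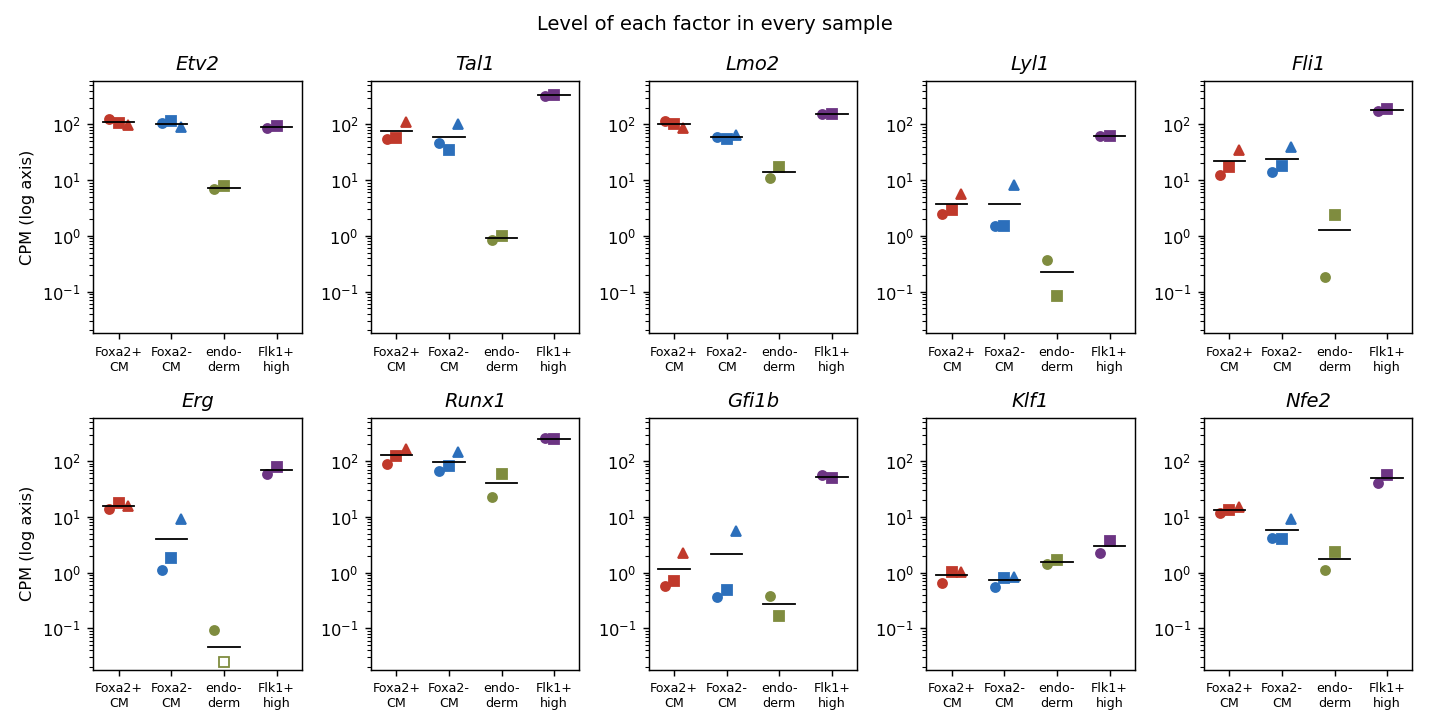
Level of each factor in the 10 samples, in CPM on a log axis. Circles, squares and triangles are replicates 1, 2 and 3, lines are group means, and the open square marks the endoderm sample in which Erg had 0 counts, drawn at the foot of the axis; Etv2 lies between 87.9 and 126 CPM in the 3 mesoderm groups, whereas Gfi1b and Lyl1 reach at most 5.52 and 8.29 CPM in CM.

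Etv2, the factor at the head of the programme, stood at 126, 104 and 97.5 CPM in Foxa2+ CM replicates 1, 2 and 3, at 106, 113 and 91.0 CPM in Foxa2- CM, and at 87.9 and 92.3 CPM in Flk1+ high. Flk1+ high overlapped with Foxa2- CM and lay just below all 3 Foxa2+ CM samples. In a fit of all 10 samples (edgeR quasi-likelihood test with Benjamini-Hochberg adjustment over 16180 genes, called at 0.05), the log2 fold change of Flk1+ high was -0.20 against Foxa2- CM (95% interval -0.48 to 0.09, adjusted p = 0.315) and -0.28 against Foxa2+ CM (95% interval -0.56 to 0.01, adjusted p = 0.151). Etv2 was not called in either comparison.

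The Etv2 values carried a limit of the counting. Duplicate reads had been removed from single-end reads, which leaves at most 2 counts per exonic base of a gene, 1 for each strand. Etv2 had between 1.36 and 1.72 counts per exonic base in the CM samples, which placed it between rank 2 and rank 12 of the 23239 genes with at least 1000 exonic bases, and 1.34 and 1.12 in Flk1+ high. The densest gene, mt-Cytb, lay between 1.76 and 1.84 in every sample. In counts with this limit undone, under the assumption that reads start evenly along the exons and as a setting chosen after the data were seen, the log2 fold change of Flk1+ high became -0.47 against Foxa2- CM (adjusted p = 0.0201, edgeR) and -0.76 against Foxa2+ CM (adjusted p = 0.00234, edgeR), and both were called as lower in Flk1+ high. Tal1 and Lmo2 were the next densest of the 10 in Flk1+ high, at 1.19 and 0.984 for Tal1 and 1.14 and 0.891 for Lmo2, and none of the other 7 passed 0.8 counts per base in any sample.

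**Figure D2:**
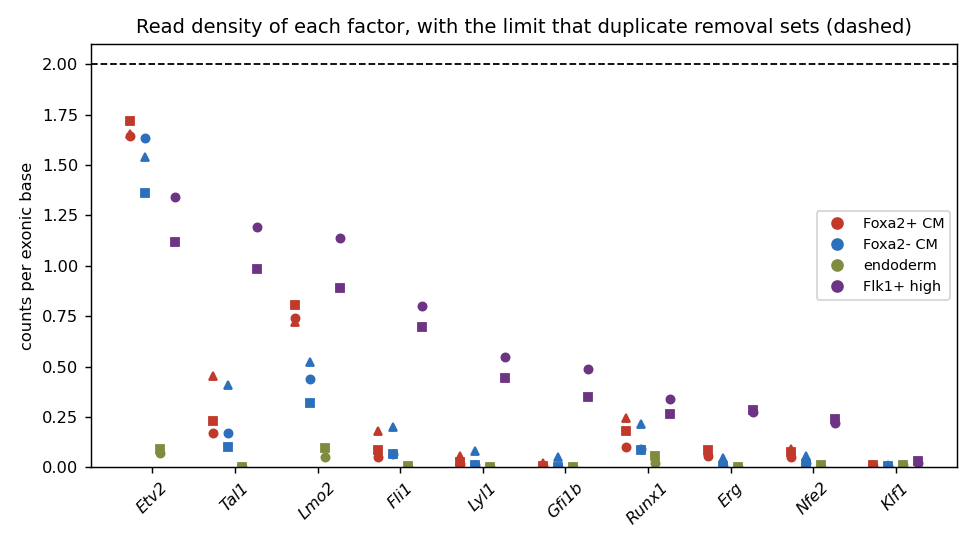
Counts per exonic base of each factor in every sample, coloured by group, with replicates 1, 2 and 3 as circles, squares and triangles. The dashed line is the limit of 2 counts per base, and only Etv2 in the CM samples lies above 1.36.

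All 10 factors passed the filter on low counts in every comparison. Of the 10, 9 were called higher in Flk1+ high than in Foxa2- CM, all but Etv2, where 11.3% of all genes tested were called higher and 21.6% in either direction. The median log2 fold change of the 10 was 2.70, against 0.02 over all genes. Against Foxa2+ CM, 8 were called higher, all but Etv2 and Runx1, where 11.6% of all genes were and 22.8% in either direction, with a median of 2.00 against 0.03. The comparisons share the Flk1+ high samples and are not independent of each other.

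The bHLH factors and their bridge were all higher in Flk1+ high. Tal1 was at 328 and 339 CPM in Flk1+ high, at 54.3, 58.0 and 112 CPM in Foxa2+ CM and at 45.5, 34.9 and 101 CPM in Foxa2- CM. Every Flk1+ high value was above every CM value, and the third replicate of each CM group was well above its other two. For Tal1 the log2 fold change was 2.46 ± 0.42 (SE) against Foxa2- CM (adjusted p = 0.00347, edgeR) and 2.15 ± 0.41 against Foxa2+ CM (adjusted p = 0.0059, edgeR).

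Lyl1, the relative of Tal1, was at 61.5 and 62.5 CPM in Flk1+ high, at 2.48, 2.89 and 5.69 CPM in Foxa2+ CM and at 1.48, 1.51 and 8.29 CPM in Foxa2- CM. The groups were far apart although the third CM replicates were again the highest of their groups. Its log2 fold change was 4.01 ± 0.66 against Foxa2- CM (adjusted p = 0.00308, edgeR) and 4.06 ± 0.67 against Foxa2+ CM (adjusted p = 0.00283, edgeR). The mean CM level of Lyl1 was 5.94% of its Flk1+ high mean in Foxa2+ CM and 6.06% in Foxa2- CM, where that of Tal1 was 22.4% and 18.1%.

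Lmo2 was at 154 and 152 CPM in Flk1+ high, at 117, 101 and 87.9 CPM in Foxa2+ CM and at 58.8, 54.6 and 63.6 CPM in Foxa2- CM. The 3 groups did not overlap, and Foxa2+ CM lay between the others. The log2 fold change of Flk1+ high was 1.37 ± 0.16 against Foxa2- CM (adjusted p = 0.000742, edgeR) and 0.59 ± 0.16 against Foxa2+ CM (adjusted p = 0.0302, edgeR). The second of these was no longer called without Foxa2+ CM replicate 2 or 3 (adjusted p = 0.0903 and 0.087), Foxa2- CM replicate 1 or 2 (0.0555 and 0.0516) or Flk1+ high replicate 1 or 2 (0.0765 and 0.0886), with log2 fold changes between 0.49 and 0.58 in these fits.

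Among the later ETS factors, Fli1 was at 174 and 190.3 CPM in Flk1+ high, at 12.4, 17.1 and 35.3 CPM in Foxa2+ CM and at 13.9, 17.8 and 39.3 CPM in Foxa2- CM. The CM groups covered nearly the same range, far below Flk1+ high. For Fli1 the log2 fold change was 2.94 ± 0.54 against Foxa2- CM (adjusted p = 0.00504, edgeR) and 3.07 ± 0.54 against Foxa2+ CM (adjusted p = 0.00411, edgeR).

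Erg differed from Fli1 in how the CM samples were arranged. It was at 59.7 and 78.0 CPM in Flk1+ high, at 14.0, 17.4 and 15.4 CPM in Foxa2+ CM and at 1.11, 1.82 and 9.13 CPM in Foxa2- CM. The Foxa2+ CM samples were close together and above every Foxa2- CM sample, and the third Foxa2- CM sample was several times the other two. The log2 fold change of Flk1+ high was 4.06 ± 0.65 against Foxa2- CM (adjusted p = 0.00259, edgeR) and 2.14 ± 0.60 against Foxa2+ CM (adjusted p = 0.031, edgeR). The call against Foxa2+ CM was lost with DESeq2 (adjusted p = 0.0647), without Foxa2+ CM replicate 1, 2 or 3 (edgeR adjusted p = 0.112, 0.0848 and 0.0782) and without Flk1+ high replicate 2 (0.111), at log2 fold changes between 1.90 and 2.22.

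Runx1, the factor of haemogenic endothelium, was detected in every group. It was at 257 and 248 CPM in Flk1+ high, at 90.0, 124 and 164 CPM in Foxa2+ CM and at 67.4, 81.8 and 144 CPM in Foxa2- CM. Both Flk1+ high samples were above all CM samples, and the CM groups overlapped. The log2 fold change of Flk1+ high was 1.37 ± 0.39 against Foxa2- CM (adjusted p = 0.0353, edgeR) and 1.00 ± 0.39 against Foxa2+ CM (adjusted p = 0.098, edgeR, not called). The first was lost without Foxa2- CM replicate 1 or 2 (adjusted p = 0.132 and 0.126), Flk1+ high replicate 1 or 2 (0.0815 and 0.101) or Foxa2+ CM replicate 2 (0.0578), with log2 fold changes between 1.13 and 1.37.

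The factors of blood and erythroid differentiation held the largest fold change of the 10 between Flk1+ high and CM, that of Gfi1b, and the lowest level per kilobase, that of Klf1. Gfi1b was at 55.7 and 50.04 CPM in Flk1+ high, at 0.584, 0.694 and 2.20 CPM in Foxa2+ CM and at 0.371, 0.476 and 5.52 CPM in Foxa2- CM, which in counts was 889 and 636 against 8, 12, 39, 6, 6 and 98. The first 2 replicates of each CM group had 12 counts or fewer. Its log2 fold change was 4.58 ± 0.88 against Foxa2- CM (adjusted p = 0.006, edgeR) and 5.47 ± 0.93 against Foxa2+ CM (adjusted p = 0.0033, edgeR), and the mean CM levels were 4.02% and 2.19% of the Flk1+ high mean. Without replicate 3 of both CM groups, a setting chosen after the data were seen, these log2 fold changes were 6.95 and 6.32.

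Nfe2 was at 40.9 and 56.6 CPM in Flk1+ high, at 11.6, 13.2 and 15.3 CPM in Foxa2+ CM and at 4.21, 3.97 and 9.30 CPM in Foxa2- CM. As for Lmo2 and Erg, no 2 of these groups overlapped and Foxa2+ CM lay in the middle. Over all genes tested between the CM groups, 13.6% lay higher in every Foxa2+ CM sample than in any Foxa2- CM sample. The share of all genes with this full order of groups was not worked out. Flk1+ high had a log2 fold change of 3.05 ± 0.37 against Foxa2- CM (adjusted p = 0.000782, edgeR) and 1.86 ± 0.36 against Foxa2+ CM (adjusted p = 0.0059, edgeR).

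Klf1 was at 2.26 and 3.70 CPM in Flk1+ high, or 36 and 47 counts, and between 0.557 and 1.04 CPM in CM, or 9 to 18 counts. Both Flk1+ high values were above all CM values. The log2 fold change of Flk1+ high was 2.00 ± 0.34 against Foxa2- CM (adjusted p = 0.00321, edgeR) and 1.69 ± 0.33 against Foxa2+ CM (adjusted p = 0.00601, edgeR), on a level per kilobase of exon that was the lowest of the 10 in Flk1+ high.

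**Figure D3:**
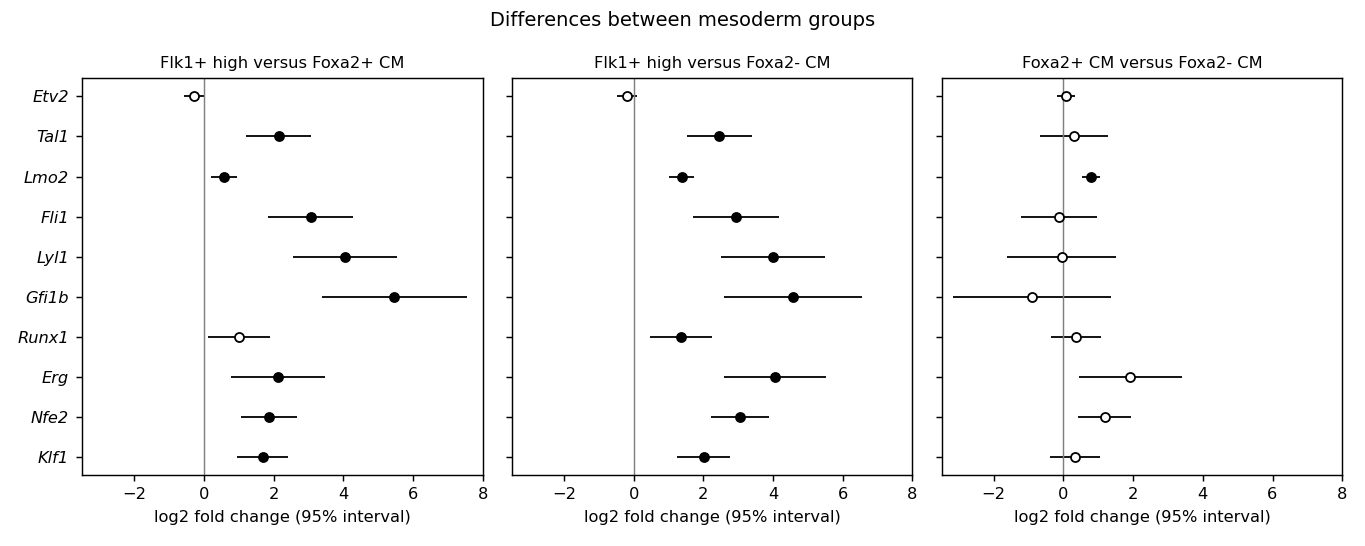
Log2 fold change of each factor, with 95% intervals, between the mesoderm groups. Filled points were called at an adjusted p of 0.05 (edgeR) and open points were not, and Etv2 lies at or just below 0 in both comparisons of Flk1+ high while Gfi1b and Lyl1 lie above 4.

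Levels of different genes were compared per kilobase of exon. In Flk1+ high the order of the mean level was Etv2 (86.0 CPM per kb), Tal1 (76.1), Lmo2 (70.6), Fli1 (52.3), Lyl1 (34.5), Gfi1b (28.9), Runx1 (21.03), Erg (19.9), Nfe2 (16.3) and Klf1 (1.95). The samples of Runx1 and Erg overlapped, as did those of Erg and Nfe2, and the other neighbours did not. Each value rests on 2 samples, and the limit on counts per base bears on the first 3. With the longest transcript in place of all exons Lmo2 came first, before Etv2 and Tal1, and 2 of the 10, Fli1 and Klf1, kept their place. In CM the order over all exons had Etv2 at the top by a wider margin, at 104 ± 14.2 (SD, n = 3) CPM per kb in Foxa2+ CM and 98.6 ± 10.8 (SD, n = 3) in Foxa2- CM, followed by Lmo2 at 47.0 ± 6.81 and 27.2 ± 2.07 and Tal1 at 17.1 ± 7.37 and 13.8 ± 8.06. By the longest transcript, Runx1 came before Tal1 in every CM sample. Runx1 was then at 15.4, 21.1 and 28.0 in Foxa2+ CM and Tal1 at 12.9, 13.8 and 26.6. In Foxa2- CM they were at 11.5, 14.0 and 24.6 and at 10.8, 8.28 and 23.9.

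Between the CM groups, 1 of the 10 factors was called, Lmo2, where 3.81% of all genes tested were called higher in Foxa2+ CM, 2.66% lower and 6.48% in either direction. In a fit of the 6 CM samples over 15284 genes, the log2 fold change of Foxa2+ over Foxa2- CM was 0.79 ± 0.11 for Lmo2 (adjusted p = 0.00885, edgeR). It fell short of the 2-fold rule used as an alternative. The call was lost without Foxa2- CM replicate 2, in a fit that called 239 of 15690 genes. Erg and Nfe2 were also higher in all 3 Foxa2+ CM samples than in any Foxa2- CM sample, with log2 fold changes of 1.92 ± 0.64 (adjusted p = 0.142, edgeR) and 1.18 ± 0.33 (adjusted p = 0.0807, edgeR), and neither was called. Over all genes tested, 13.6% lay higher in every Foxa2+ CM sample than in any Foxa2- CM sample. DESeq2 called Nfe2 (adjusted p = 0.00538), and so did edgeR without its filter on low counts (adjusted p = 0.0312). With the replicate number as a block, edgeR called 5 of the 10, Erg, Lmo2, Nfe2, Runx1 and Tal1. That fit called 2556 of 15284 genes. The 7 factors other than Lmo2, Erg and Nfe2 overlapped between the CM groups. Their log2 fold changes ran from -0.90 for Gfi1b (95% interval -3.17 to 1.37) to 0.36 for Runx1 (95% interval -0.35 to 1.07), and that of Etv2 was 0.08 (95% interval -0.18 to 0.34). The limit of 2 counts per exonic base bears on the Etv2 value, since Etv2 lay between 1.36 and 1.72 in these samples. A difference may be compressed there, which the interval does not cover.

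These results changed with the third replicates. Without Foxa2- CM replicate 3, the log2 fold change of Erg was 3.45 (adjusted p = 6.89e-05, edgeR), that of Nfe2 1.72 (adjusted p = 0.000627, edgeR) and that of Runx1 0.77 (adjusted p = 0.0416, edgeR), so that 4 factors with Lmo2 were called, where 1701 of 15401 genes were. Without replicate 3 of both groups, 6 were called, Erg, Lmo2, Lyl1, Nfe2, Runx1 and Tal1, all higher in Foxa2+ CM, in a fit that called 2632 of 15093 genes. That setting was chosen after the data were seen, and it leaves 2 samples in each group.

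Across the CM replicates, 5 of the 10 factors differed with the replicate number in an F test beside the CM group, where 7.66% of all genes did. They were Fli1 (adjusted p = 3.93e-05, edgeR), Tal1 (9.66e-05), Runx1 (0.000239), Gfi1b (0.00196) and Lyl1 (0.00588), and each of them was highest in replicate 3 in both CM groups. The share of all genes that were highest in replicate 3 in both groups was not worked out. Etv2 (0.17), Lmo2 (0.58), Erg (0.299), Nfe2 (0.113) and Klf1 (0.548) were not called. The numbers come from the sample titles, which do not say that samples of 1 number were grown together.

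The size of the difference was uneven between factors and between groups. Replicate 3 stood at 2.39 times the mean of replicates 1 and 2 for Fli1 in Foxa2+ CM and at 2.48 times in Foxa2- CM, at 1.99 and 2.505 times for Tal1, and at 1.54 and 1.93 times for Runx1. For Lyl1 the ratios were 2.12 and 5.54, and for Gfi1b 3.44 and 13.0, in both cases on the low counts given above. Erg had a ratio of 0.983 in Foxa2+ CM and of 6.22 in Foxa2- CM, and Nfe2 of 1.23 and 2.28. For Etv2 they were 0.849 and 0.831, on counts near the limit per exonic base, and for Lmo2 0.807 and 1.12. The difference of these ratios between the CM groups was not tested.

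**Figure D4:**
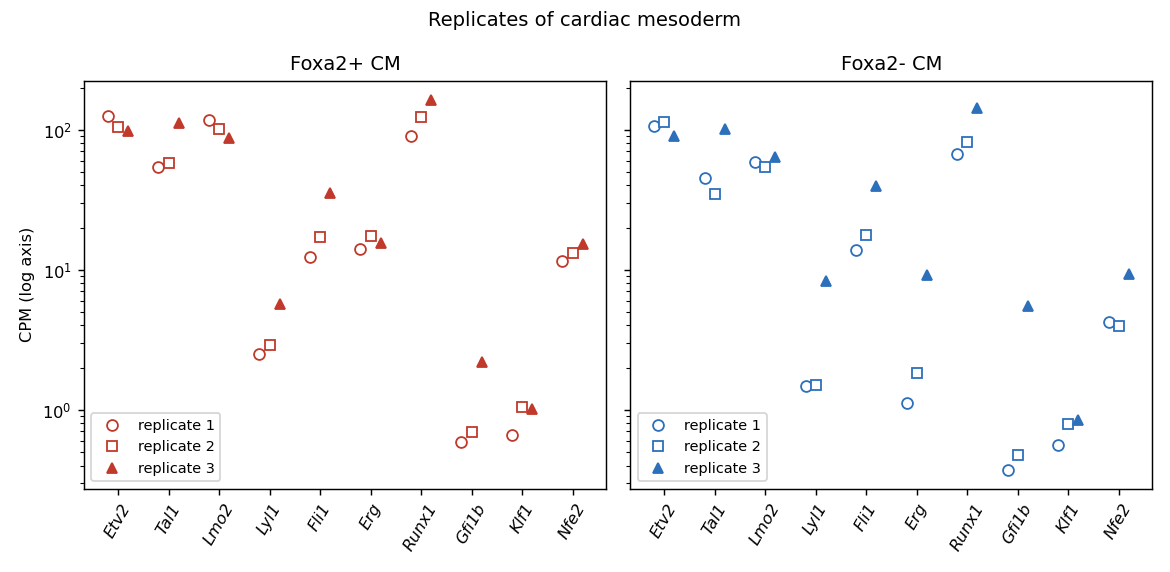
Level of each factor in the 3 replicates of Foxa2+ CM (left) and Foxa2- CM (right), in CPM on a log axis. Filled triangles are replicate 3, and they stand above replicates 1 and 2 for Tal1, Lyl1, Fli1, Runx1, Gfi1b and Nfe2 in both groups, for Lmo2, Erg and Klf1 in Foxa2- CM alone, and for Etv2 in neither.

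Markers of other cells moved with the replicate number in both directions. Of the 22 tested of 26 endothelial genes, 15 were called by replicate number, all with a positive difference of replicate 3 from replicate 1, and so were 6 of the 11 tested of 20 early blood genes. Over all genes tested, 7.66% were called by replicate number, in either direction, and this share was not split by direction. Tie1, an endothelial receptor, was at 0.803, 1.04 and 3.38 CPM in Foxa2+ CM replicates 1, 2 and 3 and at 0.247, 0.397 and 18.5 CPM in Foxa2- CM. The endothelial genes summed to 344, 401 and 519 CPM in Foxa2+ CM and to 317, 321 and 690.5 CPM in Foxa2- CM, against 2408 and 2831 CPM in Flk1+ high. In endoderm they summed to 366 and 584 CPM, within the range of CM. The early blood genes summed to 77.2, 94.7 and 107 CPM in Foxa2+ CM and 92.8, 107 and 184 CPM in Foxa2- CM, against 481 and 568 CPM in Flk1+ high. Their sum was 265 and 371 CPM in endoderm, above every CM sample, so the sums are not particular to blood or endothelial cells. Cldn5 was at 0 counts in Foxa2+ CM replicate 1 and Foxa2- CM replicate 2, Gja5 in Foxa2- CM replicates 1 and 2, Emcn in every CM sample but Foxa2+ CM replicate 3, and the early blood gene Gp9 in every CM sample but Foxa2- CM replicate 3. Of 10 endoderm markers, 1 was called with a positive and 3 with a negative difference, Foxa2 among the latter (-2.27 on the log2 scale, adjusted p = 0.00477, edgeR), and Gsc was at 65.1, 51.4 and 35.6 CPM in Foxa2+ CM and 54.2, 44.4 and 28.7 CPM in Foxa2- CM. Of 11 cardiac mesoderm markers, 3 were called with a positive difference and 1 with a negative one, Mesp1, a factor of early cardiac mesoderm, at 6.43, 7.05 and 3.72 CPM in Foxa2+ CM and 61.9, 62.9 and 23.2 CPM in Foxa2- CM. Of the 6 pluripotency markers tested, 2 were called, both with a negative difference. The part of any of these lists in the result was not tested.

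Endoderm held few transcripts of these factors, with exceptions. Of the 10, 8 were called lower in endoderm than in Foxa2+ CM, where 16.7% of all genes were called lower and 35% in either direction. Against Foxa2- CM 7 were called lower, where 14% of all genes were and 30.1% in either direction. Against Flk1+ high, 9 were lower in endoderm, all but Klf1, where 16.2% of all genes were called higher in Flk1+ high and 32.6% in either direction. The median log2 fold change of Flk1+ high over endoderm was 5.96, which lies between Nfe2 and Fli1. In endoderm Nfe2 had 12 and 28 counts and Fli1 2 and 28, so the median rests in part on low counts.

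Tal1 had 9 and 12 counts in the endoderm samples, or 0.838 and 1.00 CPM, and its log2 fold change was -6.02 ± 0.76 against Foxa2- CM (adjusted p = 0.000397, edgeR). Etv2 was at 6.79 and 7.94 CPM, with a log2 fold change of -3.80 ± 0.16 (adjusted p = 1.41e-06, edgeR). Etv2 lay between 1.36 and 1.63 counts per exonic base in Foxa2- CM, near the limit of 2, and at 0.0697 and 0.0906 in endoderm. Its difference may therefore be compressed, which the SE does not cover. Lmo2 was at 10.8 and 17.5 CPM, with a log2 fold change of -2.06 ± 0.19 (adjusted p = 7.36e-05, edgeR). These 3 were called lower in endoderm against both CM groups, and their samples lay below every CM sample.

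Erg had 1 and 0 counts in endoderm, Lyl1 4 and 1 and Gfi1b 4 and 2, too few for a fold to be read. Erg and Lyl1 were called lower than in Foxa2- CM (adjusted p = 0.0136 and 0.0249, edgeR), and both calls were lost without endoderm replicate 1 or 2. Gfi1b was not called against Foxa2- CM or Foxa2+ CM (adjusted p = 0.141 and 0.306, edgeR). Fli1 differed between the endoderm samples, with 2 and 28 counts.

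Runx1 remained detected in endoderm, at 22.3 and 57.6 CPM, and every endoderm sample lay below every CM sample. Its log2 fold change was -1.65 ± 0.44 against Foxa2+ CM (adjusted p = 0.0164, edgeR), a call lost without endoderm replicate 1 (adjusted p = 0.119), and -1.29 ± 0.43 against Foxa2- CM (adjusted p = 0.0502, edgeR, not called). The second was called with DESeq2 (adjusted p = 0.0474), in edgeR without its filter (0.0198) and without Foxa2- CM replicate 1 (0.0436) or endoderm replicate 2 (0.0237). Nfe2 was at 1.12 and 2.34 CPM and was called against both CM groups, although not against Foxa2- CM without endoderm replicate 1 (adjusted p = 0.146). Klf1 was at 1.40 and 1.67 CPM in endoderm, above all CM samples, and was not called (log2 fold change 1.06 ± 0.36 against Foxa2- CM, adjusted p = 0.0529, edgeR). With the replicate number as a block, Klf1 was called higher in endoderm than in Foxa2- CM (adjusted p = 0.026, edgeR).

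Genes that work with these factors were described from lists. Of 16 partners in DNA-bound complexes, all tested, 5 were called higher and 1 lower in Flk1+ high than in Foxa2- CM, with a median log2 fold change of 0.17. Over all genes tested, 11.3% were called higher and 10.3% lower in that comparison. Gata1, the erythroid and megakaryocytic GATA factor, was at 58.2 and 50.9 CPM in Flk1+ high and at most 6.14 CPM in CM (log2 fold change 4.38, adjusted p = 0.00499 against Foxa2- CM, edgeR). Gata2, the GATA factor of early progenitors, was at 235 and 226 CPM in Flk1+ high and between 72.1 and 124 CPM in CM (log2 fold change 1.47, adjusted p = 0.000753, edgeR). The corepressor Cbfa2t3, which binds Tal1 complexes, was at 187 and 173 CPM against 5.13, 4.996 and 25.3 CPM in Foxa2- CM. Lmo1, the close relative of Lmo2, went the other way, at 3.82 and 10.3 CPM in Flk1+ high and between 34.4 and 58.9 CPM in CM (log2 fold change -2.73, adjusted p = 0.00173 against Foxa2- CM, edgeR). The bridge Ldb1 and the E protein Tcf3 had log2 fold changes of 0.12 and 0.04 in that comparison and were not called.

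Of 22 other transcription factors of endothelium and blood, all tested, 16 were called higher and 1 lower in Flk1+ high than in Foxa2- CM, with a median log2 fold change of 2.04. For this comparison, to which all counts of this paragraph belong, 11.3% of all genes tested were called higher and 10.3% lower. Ikzf1, a lymphoid and progenitor factor, was at 137 and 127 CPM in Flk1+ high and at most 14.7 CPM in CM, and Myb, a factor of blood progenitors, was at 77.1 and 79.7 CPM against at most 6.88 CPM. In endoderm Ikzf1 was at 18.3 and 31.3 CPM and Myb at 24.5 and 10.7 CPM, both above every CM sample. Spi1, the myeloid ETS factor PU.1, was at 20.3 and 13.0 CPM, and at most 1.80 CPM in CM. All 23 endothelial genes tested of 26 were called higher in Flk1+ high, and 11 of the 16 early blood genes tested of 20, while 7 of 11 cardiac mesoderm markers were called lower, 1 of which, Pdgfra, had been used in the sort. The leukocyte marker Ptprc had 0 counts in both Flk1+ high samples.

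The red-cell genes that Klf1 is known for were mostly low. Of 19 erythroid genes in the files, 9 passed the filter and 3 were called higher in Flk1+ high than in Foxa2- CM. Among all genes tested, 11.3% were called higher there. Alas2, the first enzyme of haem synthesis in red cells, was at 12.5 and 26.4 CPM in Flk1+ high and at most 4.17 CPM in CM (log2 fold change 2.88, adjusted p = 0.0022, edgeR), and Epor, the erythropoietin receptor, was at 37.2 and 26.4 CPM against 15.1 to 20.6 CPM in CM. Epb42, a protein of the red-cell membrane, was the third called, with 139 and 141 counts in Flk1+ high and at most 14 in any CM sample (log2 fold change 5.05, adjusted p = 0.0047, edgeR).

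The embryonic globin gene Hbb-bh1 was detected, at 47 and 295 counts in Flk1+ high, 0, 8 and 4 in Foxa2+ CM, 3, 2 and 57 in Foxa2- CM, and 0 in both endoderm samples. Foxa2- CM replicate 3 lay above 1 of the Flk1+ high samples. Hbb-bh1 was called higher in Flk1+ high than in endoderm (adjusted p = 0.0195, edgeR) and Foxa2+ CM, the latter by 5.70 on the log2 scale (adjusted p = 0.0204, edgeR). Its log2 fold change against Foxa2- CM was 3.38 and was not called (adjusted p = 0.074, edgeR). The embryonic globin gene Hbb-y had 3 and 45 counts in Flk1+ high and at most 7 in any other sample, Hba-a2, Hbb-bs and Hbb-bt had at most 5 counts in any sample, and Hba-a1 and Hba-x had 0 in all 10.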

How the data were processed

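RNAseq libraries were made with a kit that does not mark strand and read as 50 nt single-end reads. The authors aligned the reads to mm10 with STAR 2.5.0a, removed duplicates with Picard and counted the remaining reads with HTSeq 0.6.0. The deposited values are whole-number counts per Ensembl gene, not normalized, and the counting's strand setting is not given in the sources used here. Rows that name no gene were left out, and between 72.2% and 80.5% of uniquely aligned reads fell on genes. Symbols and exonic lengths came from GENCODE M21, which matched 37607 of 38924 identifiers. Groups and replicate numbers came from the labels.

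Counts were normalized with TMM and tested with the quasi-likelihood test of edgeR 4.0.16 in R 4.3.3, after edgeR's expression filter at its defaults, with Benjamini-Hochberg adjustment over all genes tested and a threshold of 0.05. The CM groups were compared in the 6 CM samples and the other groups in 1 model of all 10. Standard errors were worked back from each log2 fold change and its F statistic. CPM used the TMM normalized library sizes of all 10 samples. The test was checked on simulated counts. Each sample was counted as 1 replicate. Samples of 1 group differed by more than sampling noise, which does not show that they came from separate cultures. The alternatives were DESeq2 1.42.0, its size factors, no filter, a 2-fold rule, the replicate number as a block, and leaving out samples. The members and the gene lists were chosen with earlier results of these data known. All 10 members are named, and from each list at most 4 genes with the largest change among those called between Flk1+ high and Foxa2- CM with a mean of at least 50 counts. Ldb1, Tcf3, Epb42, the globin genes and markers at 0 counts were named after their values were seen. Promoter sequences were taken from RefSeq (GRCm38.p6). Figures used matplotlib 3.10.9.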

Additional observations from a re-analysis of the deposited data

How the results depend on the processing

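The counts of factors called for Flk1+ high against either CM group or endoderm, and for endoderm against Foxa2+ CM, stayed within 1.5 times under every alternative run. The comparison of the CM groups, with 1 factor called, gave 2 with DESeq2 (Lmo2 and Nfe2), 2 without an expression filter, 0 under the 2-fold rule, 5 with the replicate block (Erg, Lmo2, Nfe2, Runx1 and Tal1) and 6 without replicate 3 of both CM groups, an alternative chosen after the data were seen. Over all genes, DESeq2 called 1332 of 16616, edgeR without a filter 1210 of 25526 and the 2-fold rule 460 of 15284. Without replicate 3 of both groups, 2632 of 15093 genes were called. Leaving out 1 sample gave between 0 and 4, with 0 without Foxa2- CM replicate 2 and 4 without Foxa2- CM replicate 3. Those fits called 239 of 15690 and 1701 of 15401 genes. The log2 fold change of Lmo2 without Foxa2- CM replicate 2 was 0.73. The replicate block raised the genes called in that comparison from 990 to 2556. Correlations of the deviations of same-numbered CM samples were 0.48, 0.086 and 0.58 for replicates 1, 2 and 3. Those of either replicate 3 with the other numbers ran from -0.55 to -0.13. Foxa2+ CM replicate 2 did not correlate best with its own number, at 0.097 with Foxa2- CM replicate 1. The sample titles do not state pairs, so the main fit left the numbers out, and whether the samples were paired was not tested. With the block, Runx1 was also called against Foxa2+ CM in Flk1+ high (adjusted p = 0.00664, edgeR), Etv2 was called lower (log2 fold change -0.36, adjusted p = 0.0461) and Lmo2 was not called (adjusted p = 0.0579). Endoderm against Foxa2- CM, with 7 called, gave between 4 and 8 when 1 sample was left out, with 4 without endoderm replicate 1, and 9 with the block. The 9 with the block included Klf1, which was called higher in endoderm (log2 fold change 1.17, adjusted p = 0.026, edgeR), while the 7 of the main fit were all lower. The fit with the block called 4616 of 16180 genes there, and the main fit 4875. The F test of the replicate number, with 5 called, gave 8 without a filter, a fit for which the share of all genes called is not given here. With longest transcripts 2 factors kept their place in the order of levels in Flk1+ high. Directions turned only for factors that were not called between the CM groups. Lyl1 went from -0.05 to 0.14 with the replicate block and to 0.86 without replicate 3 of both groups. Leaving out 1 sample moved it between -0.51 and 1.32, Fli1 between -0.69 and 0.47, Tal1 between -0.11 and 0.91, Gfi1b between -1.77 and 1.504 and Etv2 between -0.035 and 0.16 on the log2 scale, and the cause was not tested. Gfi1b could not be fitted between the CM groups without replicate 3, since it fell below the filter. Where 1 sample was left in a group, it was assumed to vary like the others. Groups of 2 and 3 samples and counts of 20 or fewer per sample, as for Klf1 throughout CM and endoderm, limit what could be called.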

Other observations

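Over 12205 genes averaging 50 counts or more, those whose log2 CPM followed each factor most closely over the 10 samples were looked up as a description. The samples fall into 4 sorted groups, so high correlations across them are common and carry no test. The closest profiles were Ppic for Etv2 (Pearson r = 0.995), Ehbp1l1 for Tal1 (r = 0.998), Cmtm3 for Lmo2 (r = 0.991), Abi3 for Lyl1 (r = 0.992) and Efhd2 for Fli1 (r = 0.986). For Erg it was Slc44a2 (r = 0.985), for Runx1 Zfp710 (r = 0.992), for Gfi1b Gimap4 (r = 0.994), for Nfe2 Ggta1 (r = 0.998) and for Klf1, on low counts, Mbnl1 (r = 0.978). Itgb3, the platelet integrin chain, was the third for Nfe2 (r = 0.988), and the endothelial gene Rasip1 was the second for Gfi1b (r = 0.993). Of the closest 3 genes of each of the 10, none was itself a member of the set. Between members, the correlation ran from -0.28 for Klf1 with Etv2 to 0.97 for Runx1 with Fli1, and the lowest without Klf1 was 0.37, for Gfi1b with Etv2.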
